A study of Mus musculus with 8 samples.

Results

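The 42 genes described here encode proteins that carry a cell through mitosis, and they were chosen by name. A gene was found on the arrays through probes whose RefSeq transcript belongs to it, and it was given the value of its probe of highest mean across all 8 arrays. All 42 had a probe, of 20145 named genes on the array, and 41 passed the filter on dim probes. The exception was Aurkb, the Aurora kinase of the chromosomal passenger complex, whose probe was well above background on 1 array of wild-type LSK and 1 of deficient GMP. The samples were bone marrow progenitors of 12-week-old female mice, wild type or lacking ACKR1, an atypical chemokine receptor. Both genotypes were littermates of a line that had been backcrossed onto C57Bl/6J. LSK cells (lineage-negative, Sca1-positive and cKit-positive) hold stem cells and multipotent progenitors, and GMP cells (lineage-negative, Sca1-negative, cKit-positive, CD34-positive and CD16/32-positive) are granulocyte-macrophage progenitors. Each of the 4 groups had 2 arrays, and the labels do not say whether these came from separate animals or pools. The p-values therefore rest on the distance between these arrays alone, which can be technical. The labels call the mutants ACKR1-deficient without naming the allele.

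Mitosis genes are transcribed late in the cell cycle, so in a population their RNA tracks how many cells are near division. CDK1 with its cyclins drives entry into mitosis, Polo and Aurora kinases build the spindle, and kinetochore proteins attach chromosomes to it. The spindle checkpoint then holds back the anaphase-promoting complex until every chromosome is attached, after which separase cuts cohesin and the central spindle guides cytokinesis. Many of these genes are repressed in resting cells through a promoter element called CHR and activated later through CCAAT boxes. Stem cells of the adult marrow divide rarely, whereas committed myeloid progenitors divide often. In RNA from a whole sorted population, fewer dividing cells and less RNA per cell cannot be told apart.

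RefSeq promoters of the GRCm38.p6 assembly, each reaching from 250 bases before to 50 bases after a gene's start, were held for 37 of the 42 genes in 39 windows. CHR was searched as TTTGAA or TTCGAA, and the CCAAT box as CCAAT, each on both strands; a CHR and a CCAAT match overlapped in 1 window, that of Cdca8. CHR occurred in 30 of the 39 windows (76.9%), against 19.2% of all 32851 windows and 19.4% of 36 windows of DNA replication genes. CCAAT occurred in 31 windows (79.5%, against 37.4% of all and 50% of the replication windows), and both motifs in 28 (71.8%, against 7.52% and 13.9%). Of the 40 CHR matches, 27 (67.5%) lay within 50 bases of the start, compared with 25.2% of matches in all windows. The windows of Ect2 overlapped each other, as did those of Prc1, and a match they share was counted in each window. Such matches describe the letters of the window and are not measured binding. The 160 bases before the start are printed for 4 genes that are named below and hold many matches there, with CHR and CCAAT matches on either strand in capitals and each sequence on the strand of its gene.
Top2a, chr11:99024190-99024349, minus strand: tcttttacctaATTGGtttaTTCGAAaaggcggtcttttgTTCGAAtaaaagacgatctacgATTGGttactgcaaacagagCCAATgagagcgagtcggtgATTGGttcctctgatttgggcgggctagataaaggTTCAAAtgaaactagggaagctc
Cdk1, chr10:69352913-69353072, minus strand: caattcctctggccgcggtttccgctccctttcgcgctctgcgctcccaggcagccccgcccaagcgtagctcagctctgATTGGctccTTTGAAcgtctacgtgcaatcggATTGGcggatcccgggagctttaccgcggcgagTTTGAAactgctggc
Ube2c, chr2:164769769-164769928, plus strand: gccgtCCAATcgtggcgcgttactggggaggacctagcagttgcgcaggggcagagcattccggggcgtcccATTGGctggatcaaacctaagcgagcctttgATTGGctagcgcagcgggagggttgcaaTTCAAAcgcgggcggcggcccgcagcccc
Cdc20, chr4:118437344-118437503, minus strand: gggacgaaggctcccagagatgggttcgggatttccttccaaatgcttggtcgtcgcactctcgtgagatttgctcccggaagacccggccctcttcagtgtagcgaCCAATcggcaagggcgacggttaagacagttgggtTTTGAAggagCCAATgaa

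Top2a held 3 CHR and 4 CCAAT matches in the printed stretch, Cdk1 2 of each, Ube2c 1 and 3, and Cdc20 1 and 2. The median difference between wild-type GMP and LSK was 1.30 over the 26 tested genes with both motifs in a window and 1.06 over the 11 without, and the ranges of the groups overlapped.

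Levels are given throughout as log2 signal relative to the 75th percentile of that array, and differences are differences of these values. They compare arrays at 1 probe, since probes differ in brightness for reasons other than RNA. The share of spots well above background was 62.5% to 73.1% on 7 arrays and 34.3% on deficient LSK replicate 2, where 26 of the 42 genes were well above background against 39 to 42 elsewhere. Deficient GMP replicate 1 also stood apart: over these genes its correlation with the other GMP arrays was 0.86 to 0.89, against 0.98 to 0.99 among those. GMP markers summed to 2465 and 2093 times the 75th percentile in wild-type GMP and to 118 and 190 in wild-type LSK. In deficient marrow these sums were also apart, at 2962 and 1865 in GMP and 239 and 178 in LSK. The 12 LSK and stem cell markers summed to 339 and 397 in wild-type LSK and 142 and 112 in wild-type GMP, but in deficient marrow they did not separate the populations, with 235 and 156 in LSK and 267 and 124 in GMP. Over the 41 tested genes, the median level was 1.05 and 2.08 on the wild-type LSK arrays, 2.02 and −0.11 on the deficient LSK arrays, 2.78 and 2.54 on the wild-type GMP arrays and 2.47 and 2.78 on the deficient GMP arrays. Ly6a, which encodes Sca1, did not separate the populations, at 1.83 and 3.79 in wild-type LSK and 2.83 and 3.11 in wild-type GMP. The Ackr1 probe read between −1.05 and −0.07 on all arrays, and as its place relative to the disrupted sequence is not given, it checks nothing. All deficient arrays lay in 1 slide column and all wild-type arrays in the other, so genotype and column cannot be told apart.

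In wild-type marrow, mitosis genes read higher in GMP than in LSK throughout the list, by a median of 1.29 on the log2 scale. The difference was above 0 at all 41 genes under the scaling used, and at 40 under quantile normalization, where Pttg1 read −0.38. Over all 28088 features the median difference was 0.01 and 50.8% were above 0. Both GMP arrays lay above both LSK arrays at 35 genes, against 28.3% of all features, and below them at 0, against 20.2%. No single gene passed the test, however (limma, Benjamini-Hochberg adjusted p under 0.05 over all features: 0 of 41, against 1.86% of all features called, 0.502% higher and 1.36% lower). At an unadjusted p under 0.05 there were 2 genes, Racgap1 and Kif2c, against 8.4% of features. This fit pools the spread of all 4 groups, the deficient arrays included. With the wild-type arrays fitted alone, 0 of 41 genes passed (limma, 4.76% of features called), and the smallest adjusted p was 0.07. In that fit 22 genes had an unadjusted p under 0.05, and the share of features was not counted. In simulated data with 2 arrays a group, 0% of features with a log2 change of 2 were recovered in this comparison and 54% of those with a change of 4. There, 50 of 28088 features were changed at each size, and noise of the pooled spread was drawn equally for all 8 arrays. The real arrays differ in spread, so these shares need not hold for them. The wild-type LSK arrays themselves differed, replicate 1 reading below replicate 2 at 40 of 41 genes with a median difference of −0.79. Without wild-type LSK replicate 1 the median difference was 0.82, with 40 genes above 0.

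**Figure D1:**
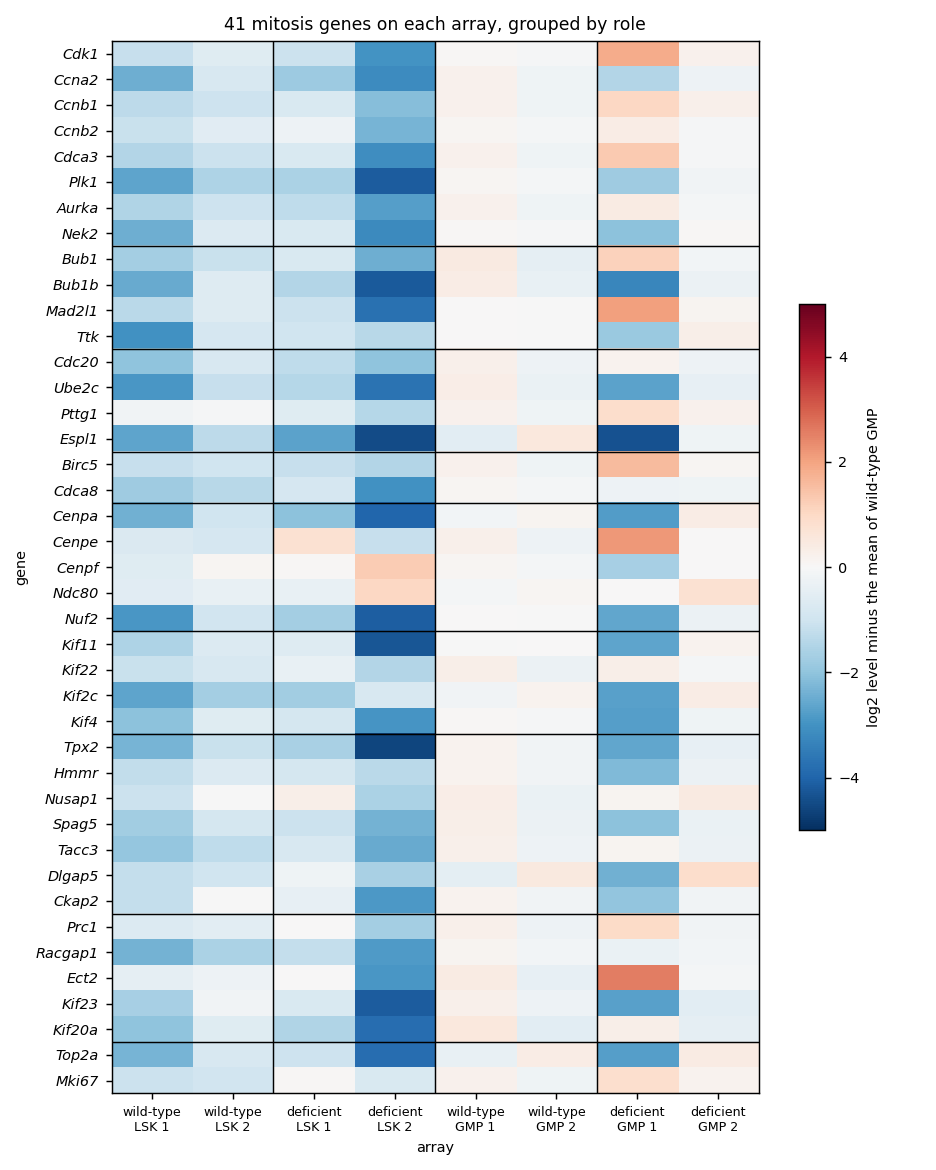
Colour gives the log2 level of each of the 41 tested genes (rows, grouped by role and separated by lines) on each of the 8 arrays (columns) minus the mean of the wild-type GMP arrays, with red above and blue below it. The wild-type LSK columns are mostly blue, deficient LSK replicate 2 is the darkest blue column, and deficient GMP replicate 1 mixes red and blue.

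Among the 8 genes of mitotic entry, both wild-type GMP arrays lay above both LSK arrays at all 8, with differences from 0.85 (Ccnb2) to 2.07 (Plk1). Plk1, the Polo-like kinase, read 1.22 and 2.32 in wild-type LSK and 3.92 and 3.76 in wild-type GMP. The difference of 2.07 (SE 0.94, 95% CI −0.04 to 4.18, adjusted p = 0.61, limma) did not pass. Its SE pools the spread of all 4 groups. The SD of Plk1 was 0.78 in wild-type LSK and 0.11 in wild-type GMP, but 1.81 in deficient LSK and 1.12 in deficient GMP. Ccnb2, a B-type cyclin partner of CDK1, read 3.38 and 3.93 in LSK and 4.61 and 4.39 in GMP. Cdk1, the kinase itself, read 1.18 and 1.71 in LSK and 2.39 and 2.23 in GMP, a difference of 0.87 (SE 0.84). Ccna2, Ccnb1, Cdca3, Aurka and Nek2 lay between these, from 1.17 to 1.61.

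The 4 checkpoint genes were separated between the populations as well. Ttk, the kinase that starts checkpoint signalling, differed most, with −4.67 and −2.49 in LSK and −1.61 and −1.66 in GMP (difference 1.94, SE 0.93, adjusted p = 0.653, limma), and it was well above background on 1 of the 2 LSK arrays. Mad2l1, the inhibitor that binds CDC20, read 2.27 and 3.0 in LSK and 3.66 and 3.61 in GMP. Bub1b, which encodes the checkpoint protein BubR1, read −0.67 and 1.19 in LSK and 2.21 and 1.49 in GMP. The SE of its difference of 1.59 was 1.19.

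Of the genes that act at anaphase, 3 of 4 were separated. Cdc20, the activator of the anaphase-promoting complex, read 2.71 and 3.92 in LSK and 4.95 and 4.47 in GMP (difference 1.39, SE 0.70, adjusted p = 0.691, limma). Ube2c, the ubiquitin-conjugating enzyme of that complex, read 0.95 and 2.71 against 4.19 and 3.54, the widest difference of the 4 at 2.04. Espl1, which encodes separase, read −1.30 and 0.01 in LSK and 0.81 and 1.85 in GMP. Pttg1, which encodes its inhibitor securin, read 3.39 and 3.5 against 3.74 and 3.35, and the groups overlapped. Its difference of 0.10 was the smallest of all 41 genes (95% CI −1.36 to 1.57). The intervals of Ube2c (−0.28 to 4.36) and Espl1 (−0.82 to 4.76) also hold 0.10, and differences between genes were not tested. At the other kept probe of Pttg1 the difference was 0.56, and both GMP arrays lay above both LSK arrays.

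In the chromosomal passenger complex, Birc5, which encodes survivin, read 5.06 and 5.23 in LSK and 6.43 and 5.98 in GMP. Cdca8, which encodes borealin, read 3.25 and 3.65 against 5.11 and 4.93, so that its GMP arrays stood clear of LSK by more than the distance between replicates (difference 1.57, SE 0.79, adjusted p = 0.69, limma). Aurkb, the kinase of the complex, was well above background on neither wild-type GMP array and has no tested difference.

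Centromere and kinetochore genes had the lowest median difference of the role groups, 0.78, and 4 of 5 were separated. Nuf2, a subunit of the NDC80 complex that grips microtubules, differed most, from −1.63 and 0.30 in LSK to 1.28 and 1.24 in GMP (difference 1.92, SE 1.06, adjusted p = 0.774, limma). Ndc80, its partner in the same complex, read −0.36 and −0.15 against 0.11 and 0.31, a difference of 0.46. Cenpe, a kinesin of the kinetochore, read 3.08 and 2.95 against 4.03 and 3.55. Cenpf, a large protein of the outer kinetochore, read −4.84 and −4.11 against −4.11 and −4.34, and its groups overlapped. It was well above background on a single wild-type LSK array. Cenpa, the histone H3 variant of centromeres, differed by 1.69.

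All 4 spindle and chromosome kinesins were separated. Kif2c, which removes tubulin from microtubule ends, gave the largest difference of the whole list, from −2.85 and −1.91 in LSK to −0.38 and −0.03 in GMP. The difference was 2.17 (SE 0.97, 95% CI 0.00 to 4.34; adjusted p = 0.595, limma), or 4.51-fold. Kif22, a chromosome-arm motor, read 2.75 and 3.03 against 4.15 and 3.55. Kif11, which pushes spindle poles apart, and Kif4, which acts on chromosomes and the central spindle, differed by 1.11 and 1.32.

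Of the 7 spindle-associated proteins 5 were separated. Tpx2, the activator of Aurora A on the spindle, read 0.37 and 1.57 in LSK and 2.85 and 2.54 in GMP (difference 1.72, SE 1.06, adjusted p = 0.849, limma). Tacc3, which stabilises kinetochore fibres, read 3.05 and 3.71 against 5.24 and 4.74, with a smaller error (difference 1.61, SE 0.75, adjusted p = 0.63). Hmmr, a spindle assembly factor, read 1.39 and 1.94 against 2.78 and 2.45. Nusap1 and Ckap2, which bind spindle microtubules, overlapped between populations, with differences of 0.54 and 0.62. Spag5 and Dlgap5 differed by 1.31 and 1.08.

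Cytokinesis genes held the difference with the smallest p. Racgap1, the GTPase-activating subunit of centralspindlin, read 1.05 and 1.84 in LSK and 3.55 and 3.28 in GMP. The difference was 1.97 (SE 0.73, 95% CI 0.34 to 3.61), or 3.93-fold, and its adjusted p was 0.401 (limma). Prc1, which bundles microtubules of the central spindle, read 3.31 and 3.46 against 4.26 and 3.72. Kif20a, a kinesin of the central spindle, read 0.69 and 2.08 against 3.22 and 2.18. Ect2, the exchange factor that activates RhoA, and Kif23, the motor subunit of centralspindlin, overlapped between populations (differences 0.35 and 0.92). The remaining pair acts on chromosomes. Top2a, topoisomerase II alpha, read 0.75 and 2.27 in LSK and 2.70 and 3.44 in GMP (difference 1.56, adjusted p = 0.962). Mki67, which encodes the proliferation marker Ki-67, read 4.88 and 5.0 against 6.16 and 5.74, and its replicates were closer together than its populations (difference 1.01, SE 0.66, adjusted p = 0.876).

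**Figure D2:**
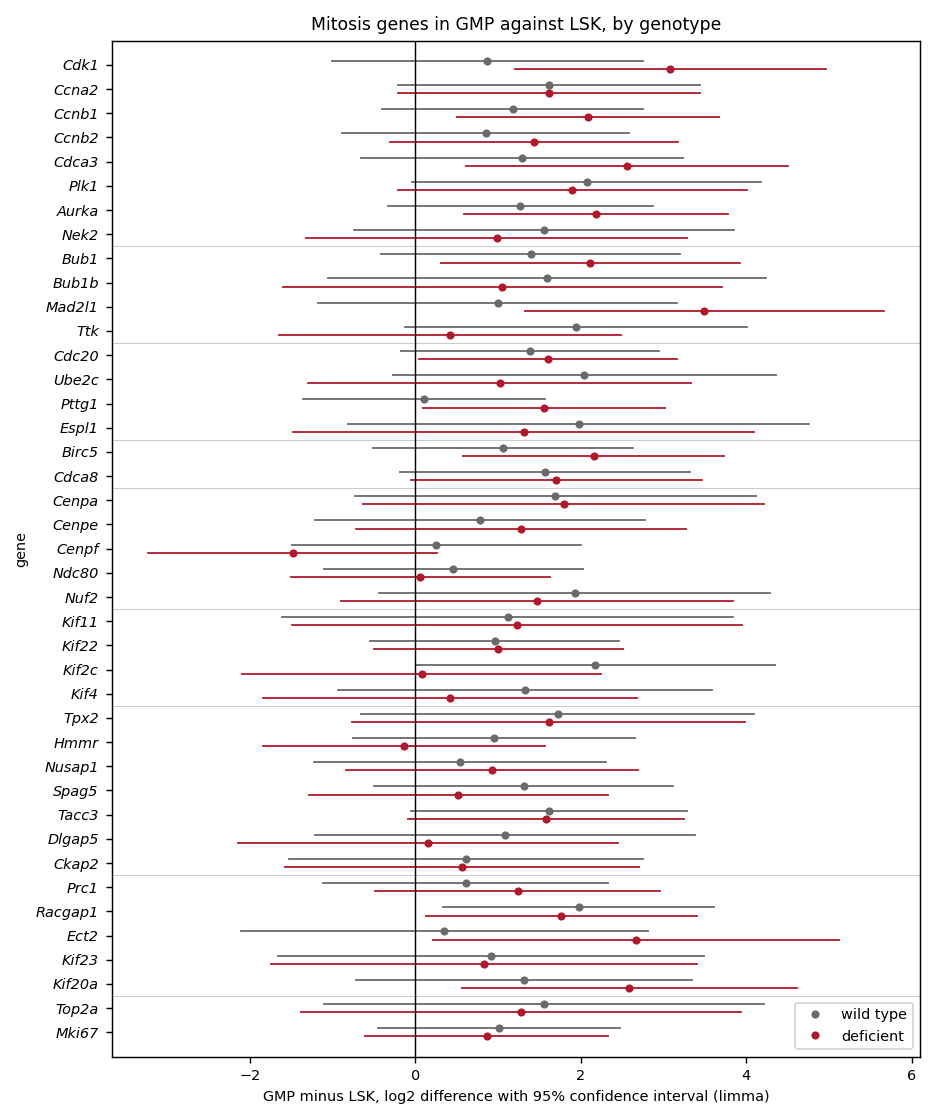
Points give the difference GMP minus LSK in log2 units for each of the 41 genes, in grey within wild type and in red within ACKR1-deficient mice, and lines give the 95% confidence interval from limma. All grey points lie right of 0, and most intervals of either colour include 0.

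In deficient marrow, the same comparison of GMP with LSK gave a median of 1.31 over the 41 genes (−0.07 over all features), with 39 above 0 against 48% of features. The exceptions were Cenpf (−1.48) and Hmmr (−0.14), which read −0.05 and 0.60 without deficient LSK replicate 2 and GMP replicate 1. Under quantile normalization 37 were above 0, and under normexp background correction 35. Both GMP arrays lay above both LSK arrays at 17 genes (18.4% of all features) and below them at 1, Cenpf (18.5%). None passed the test (limma, 0 of 41, with 0% of features called), while 12 had an unadjusted p under 0.05, against 16.7% of features. This comparison shares no array with the wild-type one, but its size moved with the deficient LSK arrays. Without deficient LSK replicate 2, the weak array, the median was 0.44 with 28 genes above 0, and without deficient LSK replicate 1 it was 2.32 with 13 genes called, where 15.2% of features were called. Without deficient GMP replicate 1 it was 1.71, without deficient GMP replicate 2 it was 1.03 with only 25 genes above 0, and without deficient LSK replicate 2 and GMP replicate 1, leaving 1 array against 1, it was 1.01 with 37 above 0.

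The genes with the smallest p in deficient marrow were Cdk1 and Mad2l1. Cdk1 read 1.22 and −0.70 in deficient LSK and 4.18 and 2.51 in deficient GMP (difference 3.08, SE 0.84, 95% CI 1.20 to 4.96; adjusted p = 0.164, limma). Mad2l1 read 2.57 and −0.11 against 5.67 and 3.77 (difference 3.49, SE 0.97, 95% CI 1.32 to 5.66; adjusted p = 0.166). At both genes the lowest value was LSK replicate 2 and the highest GMP replicate 1, and with both left out the differences were 1.29 and 1.20. Birc5 read 5.06 and 4.73 against 7.80 and 6.29 (difference 2.15, adjusted p = 0.203), which became 1.23 without those arrays. Racgap1 read 2.22 and 0.59 against 3.08 and 3.27, a difference of 1.77 beside 1.97 in wild type, and it was 0.95 without LSK replicate 2.

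Several genes that were high in wild-type GMP were low on deficient GMP replicate 1. Plk1 read 2.26 and −0.30 in deficient LSK and 2.08 and 3.67 in deficient GMP. Ube2c read 2.44 and 0.17 against 1.18 and 3.46. Top2a read 2.02 and −0.75 against 0.33 and 3.5. In all of these genes the groups overlapped, because GMP replicate 1 lay below LSK replicate 1. The same held for Nuf2 (−0.45 and −2.86 against −1.33 and 0.97). It held for Tpx2 too (1.06 and −1.88 against 0.11 and 2.30). Ttk read −2.64 and −3.03 against −3.50 and −1.33. Kif2c, which led the wild-type list, read −1.93 and −1.0 against −2.92 and 0.15, and its difference was 0.08 (95% CI −2.09 to 2.25), or 2.08 without LSK replicate 2 and GMP replicate 1.

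At other genes the populations stayed apart in deficient marrow. Cdc20 read 3.44 and 2.70 in LSK and 4.90 and 4.45 in GMP (difference 1.61, SE 0.70, adjusted p = 0.288, limma), and without LSK replicate 2 and GMP replicate 1 the difference was 1.01. Cdca8 read 4.17 and 1.99 against 4.77 and 4.80. Tacc3 read 4.2 and 2.47 against 5.14 and 4.70. Both GMP values exceeded both LSK values at each of these genes. Ccnb2 (4.23 and 2.18 against 4.86 and 4.42) was separated too. So was Kif22 (3.48 and 2.39 against 4.12 and 3.76). Prc1 read 4.01 and 2.30 against 4.96 and 3.83, so that LSK replicate 1 lay above GMP replicate 2.

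The average of both GMP against LSK comparisons was added after seeing the data. Its median was 1.42, with 40 of 41 genes above 0 (47.7% of features), and all 4 GMP arrays lay above all 4 LSK arrays at 14 genes (7.94% of features) and below them at 0 (4.69%). No gene passed (limma, 3.44% of features called), 16 had an unadjusted p under 0.05 (19.8% of features), and the smallest adjusted p was 0.0863, at Racgap1. Without deficient LSK replicate 2 the median was 0.93, and without deficient LSK replicate 1 it was 1.94 with 12 genes called, where 14.6% of features were called.

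Between genotypes in LSK, the genes of the list read lower in deficient than in wild-type cells at 33 of 41 (46.5% of features), with a median of −0.44 (0.11 over all features), but the direction turned with 1 array. Without deficient LSK replicate 2, 33 of 41 were above 0 and the median was 0.42 (−0.08 over all features). No gene passed with that array or without it (limma, 0 of 41; 0.239% of features were called with it, all higher), and 0 had an unadjusted p under 0.05, against 8.83% of features. The genotypes did not overlap at 5 genes, with the deficient pair above at 2, Ndc80 and Mki67, and below at 3, Pttg1, Espl1 and Birc5, against 16.4% and 21.1% of features (37.5% in either direction). Deficient replicate 1 lay above the wild-type mean at 33 genes, by a median of 0.42 with an SD over genes of 0.45. Deficient replicate 2 lay below it at 36 genes, with a median of −1.47 and an SD of 1.19. The wild-type arrays mattered as well: without wild-type LSK replicate 1 the median difference was −0.85, and without replicate 2 it was −0.11.

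Among the genes above 0 in LSK, Cenpf, Ndc80 and Mki67 had the smallest p. Mki67 read 4.88 and 5.0 in wild type and 6.01 and 5.18 in deficient LSK. The difference was 0.66 (SE 0.66; adjusted p = 0.669, limma), and 1.07 without replicate 2. Cenpf read −4.15 and −2.95 in deficient LSK, against −4.84 and −4.11 in wild type, so replicate 1 overlapped wild type and replicate 2 lay above it (difference 0.93, adjusted p = 0.629). Ndc80 read −0.14 and 1.23 against −0.36 and −0.15. Its difference of 0.80 (adjusted p = 0.64) was 0.11 without replicate 2, and that of Cenpf was 0.33. Cenpe, the kinetochore kinesin, was highest on replicate 1, at 4.55 beside 2.66 on replicate 2.

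Among the genes below 0 in LSK, Kif20a, Mad2l1 and Cdk1 had the smallest p. Kif20a read 1.19 and −1.13 in deficient LSK, a difference of −1.35 from wild type (SE 0.91, adjusted p = 0.587, limma). Mad2l1 differed by −1.41 (adjusted p = 0.591) and Cdk1 by −1.18 (adjusted p = 0.597). In each of the 3 genes replicate 1 lay within the wild-type values and replicate 2 far below them. Without replicate 2 the differences were −0.19, −0.07 and −0.22. Espl1 read −1.36 and −3.16, and Bub1b 0.39 and −2.34. Hmmr was more even, at 1.72 and 1.28. Kif20a, Espl1, Bub1b, Nuf2, Tpx2, Kif2c and Cenpf were among the genes not well above background on replicate 2, so their values there are near the limit of the array.

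Markers of maturing neutrophils and erythroid cells differed between the genotypes on the same arrays. Sums of B lineage, T and NK cell and megakaryocyte markers overlapped between the genotypes in LSK. In GMP the B lineage sums overlapped too. There, T and NK cell sums were 93.3 and 113 in wild type and lower, at 53.9 and 72.0, in deficient cells. Megakaryocyte sums were 1.34 and 2.0 in wild-type GMP and higher, at 32.7 and 7.99, in deficient GMP. Maturing neutrophil markers, 12 genes such as Camp and Ltf, summed to 4.12 and 11.3 times the 75th percentile on the wild-type LSK arrays, and the sums were 1474 and 3324 on the deficient ones. In GMP the sums were 10.3 and 19.5 with ACKR1 and 3618 and 1323 without it. For the 12 erythroid markers, the wild-type LSK arrays gave 16.8 and 56.6 and the deficient ones 1528 and 8540. The corresponding GMP sums were 8.41 and 15.2 with ACKR1 and 2998 and 1543 without it. In both lists the deficient array that stood apart had the higher sum. Of the neutrophil list, Mmp8 and Itgb2l were not well above background in wild-type LSK, nor were Retnlg, Mmp9 and Itgb2l in wild-type GMP, while on both deficient LSK arrays 11 of 12 were, and on both deficient GMP arrays 12 of 12. The part of such cells, and of the weak signal of deficient LSK replicate 2, in the values of the mitosis genes was not tested.

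**Figure D3:**
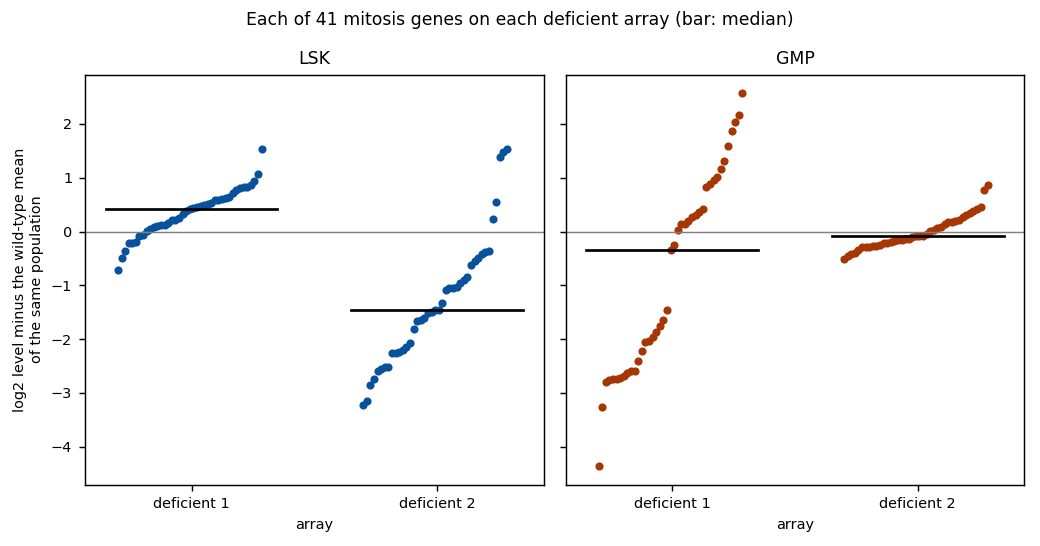
Each point is 1 of the 41 genes on 1 deficient array, as its log2 level minus the mean of the wild-type arrays of the same population, and bars mark medians. In LSK the medians are 0.42 on replicate 1 and −1.47 on replicate 2; in GMP they are −0.34 and −0.09, and the points of replicate 1 are spread more widely.

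In GMP, deficient and wild-type cells differed by a median of −0.24 (0.16 over all features), with 16 genes above 0 (59.4% of features) and 25 below. No gene passed (limma, 0 of 41; 0.146% of features called), and 0 had an unadjusted p under 0.05, against 4.82% of features. The deficient pair of arrays was above the wild-type pair at 4 genes, Cdk1, Ccnb1, Mad2l1 and Pttg1 (20.1% of features), and below it at 12 (19.5%). Here the 2 deficient arrays differed from wild type in unlike ways. Replicate 2 was close to the wild-type mean at every gene, from −0.51 (Kif23) to 0.87 (Dlgap5) with an SD of 0.32. Replicate 1 ranged from −4.36 (Espl1) to 2.57 (Ect2) with an SD of 1.83 (1.64 over all features), and it was over 1 above at 8 genes and over 1 below at 20. Without replicate 1 the median was −0.09, which was also the median over all features (−0.09).

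Of the 16 genes that read higher in deficient GMP, replicate 1 lay further above wild type than replicate 2 at 14, and Ndc80 and Nusap1 were the other way round. Cdk1, at 4.18 and 2.51 against 2.39 and 2.23 in wild type, gave a difference of 1.03 (SE 0.84; adjusted p = 0.958, limma). Cenpe read 5.95 and 3.81 (difference 1.09) and Birc5 7.80 and 6.29 (difference 0.84), each with an adjusted p of 0.958. Without replicate 1 the 3 differences were 0.20, 0.01 and 0.08. Mki67 read 6.78 and 6.13 in deficient GMP, and its lower value lay just under the higher wild-type value of 6.16.

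Of the 25 genes that read lower, replicate 1 lay below replicate 2 at 22, and at Kif20a, Cdc20 and Tacc3 it lay above it. Espl1, the separase gene, read −3.03 and 1.13 in deficient GMP (difference −2.28, SE 1.25, 95% CI −5.07 to 0.51; adjusted p = 0.955, limma). Hmmr read 0.40 and 2.32 (difference −1.26) and Bub1b −1.42 and 1.57 (difference −1.77), each also with an adjusted p of 0.955. Without replicate 1 the differences were −0.20, −0.29 and −0.28. Kif20a read 2.99 and 2.24 in deficient GMP, Ndc80 0.23 and 0.98, and Cenpf −5.87 and −4.2, the last well above background on 1 of the 2 arrays.

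Several probes of 1 gene allowed a look at this array within genes. Of the tested genes, 13 had more than 1 kept probe, 30 probes in all. In wild type the GMP minus LSK difference had the same sign at all probes of each of the 13 genes. In deficient marrow it differed in sign at 2 of them, Cdk1 (3.08 at the probe used, −2.10 and 1.20 at the others) and Dlgap5 (0.15 and −0.70). Between genotypes, probes of 1 gene differed in sign for 6 genes in GMP (Birc5, Ccnb1, Cdk1, Mad2l1, Nuf2 and Pttg1) and for 7 in LSK (Birc5, Ccnb1, Cdk1, Kif2c, Nuf2, Racgap1 and Tpx2). On deficient GMP replicate 1, the 3 Birc5 probes lay 1.60, −2.54 and −1.96 from their wild-type means, a range of 4.14, whereas on replicate 2 their range was 0.44. The ranges on replicates 1 and 2 were 3.28 and 0.64 for Cdk1 and 3.46 and 0.06 for Mad2l1. A direction on that array is thus a direction of 1 probe at these genes. Nuf2 was an exception on replicate 2 as well, with a range of 3.96. Its other kept probe read −4.8 and −5.38 in wild-type LSK and higher, at −1.07 and −2.92, in deficient LSK. In GMP that probe read −4.77 and −4.1 in wild type and higher, at −0.45 and −0.77, in deficient cells. The probe used went the other way, with deficient minus wild-type differences of −0.99 in LSK and −1.44 in GMP. The −2.92 was read on deficient LSK replicate 2, below the lowest value well above background there. Why these probes differ was not tested. Over the 41 genes, the offset of deficient GMP replicate 1 correlated with the wild-type GMP level at r = 0.48, that of replicate 2 at −0.29. Over all features both were negative (−0.27 and −0.32). These correlations run across genes that share an array and are descriptions.

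**Figure D4:**
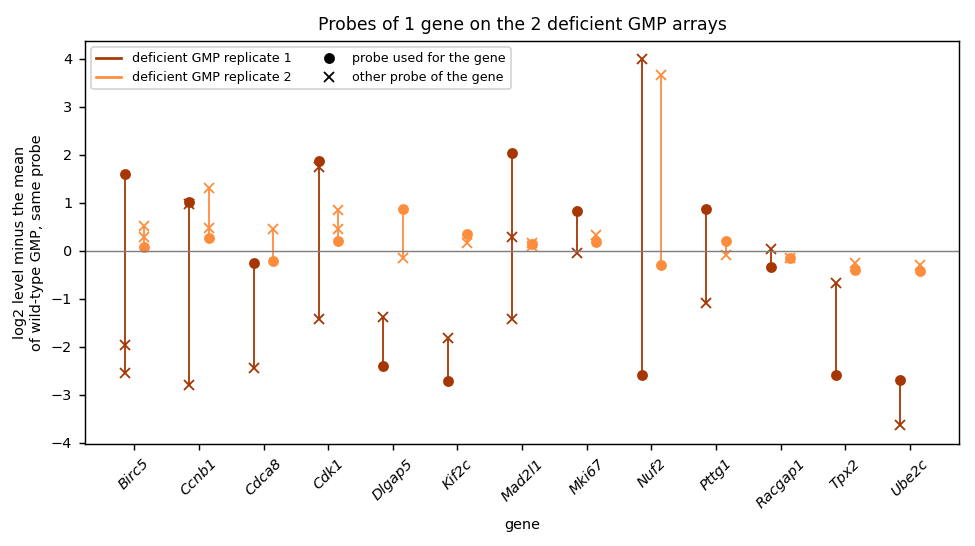
For each of the 13 genes with several kept probes, points give the log2 level of each probe on deficient GMP replicate 1 (dark) and replicate 2 (light) minus the wild-type GMP mean of that probe, with circles for the probe used and crosses for others. The dark probes of Birc5, Ccnb1, Cdk1, Mad2l1, Mki67, Nuf2, Pttg1 and Racgap1 lie on both sides of 0. The light ones span at most 1.04 except at Nuf2.

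The difference between the 2 genotype effects, GMP minus LSK, had a median of −0.03, with 20 genes above 0 and 21 below (49.7% and 50.3% of features). No gene passed (limma, 0 of 41, with 0% of features called), and 0 had an unadjusted p under 0.05, against 2.47% of features. The highest values were 2.49 at Mad2l1 (SE 1.37, 95% CI −0.58 to 5.56; adjusted p = 0.961), 2.32 at Ect2 and 2.21 at Cdk1 (each with an adjusted p of 0.961), and Kif2c was lowest at −2.10. Without deficient LSK replicate 2 and GMP replicate 1 these were 0.20, −0.49, 0.42 and −0.09. Leaving out deficient LSK replicate 2 moved the median to −0.89, and leaving out deficient LSK replicate 1 moved it to 1.10.

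Genes that work with the listed ones were described from 8 further lists. In wild type, GMP read above LSK at 26 of 27 other kinetochore genes (median 1.02), 22 of 24 other spindle and cytokinesis genes (0.83), 8 of 8 condensin genes (0.53) and 9 of 11 cohesin genes (0.18). It read above LSK at 12 of 14 subunits and cofactors of the anaphase-promoting complex (0.65), 17 of 19 genes of the DREAM, MuvB and FOXM1 regulators (0.58), 12 of 14 CDK1 regulators (1.04) and 37 of 39 DNA replication genes (1.04). In the comparisons of single populations or genotypes, 0 genes of these lists were called (limma), as for the mitosis genes. In the average of both population comparisons 1 gene was called higher, Sgo2a, which encodes shugoshin, the protector of centromeric cohesin, with a difference of 2.52. On the LSK arrays it read −2.87 and −1.82 (wild type) and −1.84 and −3.1 (deficient), and on the GMP arrays 0.55 and −0.81 (wild type) and 1.09 and −0.37 (deficient). All 4 of its GMP arrays lay above all 4 LSK arrays. Its −3.1 on deficient LSK replicate 2 was under −1.44, the lowest value well above background there, so it is near the limit of that array. The difference of Sgo2a without that array is not reported here. Without deficient LSK replicate 2, the median difference between genotypes in LSK was 0.42 over the mitosis genes, 0.29 over the other kinetochore genes and −0.06 over the DNA replication genes, where 18 of 39 were above 0.

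**Figure D5:**
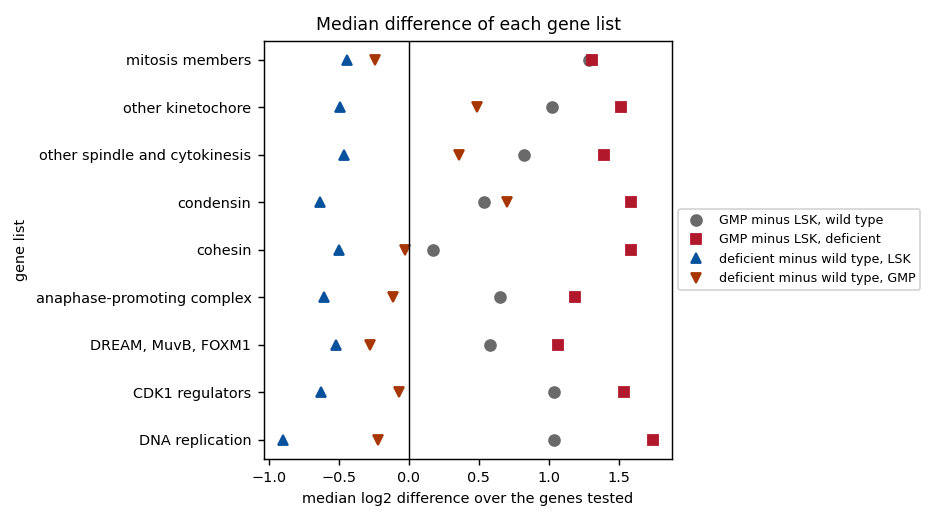
Each point is the median log2 difference of 1 gene list (rows) in 1 comparison: GMP minus LSK in wild type (grey circles) or deficient mice (red squares), and deficient minus wild type in LSK (blue upward triangles) or GMP (brown downward triangles). The population medians of every list lie right of 0 and the LSK genotype medians, which include the weak array, left of it.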

How the data were processed

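RNA of 8 sorted samples was measured on 1-colour Agilent arrays of 1 slide. Per the file headers, Agilent Feature Extraction 10.7.3.1 read them, and its processed signal is a background-corrected intensity; the design was annotated on mm9. The authors' deposited table holds log2 values that matched scanner values, shifted to the 75th percentile and centred per probe, at r of 0.999648 to 0.999941, so scale, centring and direction are known; its column medians were 0.121, −0.265, 0.0414, 1.25, −0.134, −0.136, 0.315 and −0.111 (wild-type then deficient, LSK before GMP).

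The log2 processed signal minus the array's 75th percentile was used, without control and outlier spots, with spots of a probe averaged. Probes well above background on both arrays of a group were kept (39098 of 55681), 1 per gene (28088 features). Names came from RefSeq (GRCm38.p6) for 26582 probes. Differences were fitted with limma 3.58.1 in R 4.3.3 on 4 group means (4 residual, 5.76 prior degrees of freedom) and called at an adjusted p under 0.05. The fit was tested on simulated data. The members and lists were chosen with earlier results of these data known. Values on every array were given for genes called, the brightest and the most different between wild-type populations in each role, and the 3 of smallest p in each direction of each genotype comparison; genes named beyond these were chosen after their values were seen. The mean foreground signal was not used here, so normexp used the median signal (offset 50), a change made after seeing the files. Same-numbered replicates correlated in their deviations at −0.344 in LSK, 0.262 in GMP and −0.133 between the wild-type populations, so the numbers were not taken to pair samples. Figures were drawn with Python 3.11.15 and matplotlib 3.10.9.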

Additional observations from a re-analysis of the deposited data

How the results depend on the processing

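Precision was limited by 2 arrays a group and by the weak signal of deficient LSK replicate 2. The median over the mitosis genes between genotypes in LSK was −1.47 without deficient LSK replicate 1 and 0.42 without replicate 2 or without both arrays that stood apart, and leaving out 1 array at a time gave −1.47 to 0.42; the 26 genes well above background on all arrays gave −0.32. The range on leaving out 1 array was −0.38 to −0.09 in GMP, −0.89 to 1.10 for the difference between genotype effects, 0.82 to 1.65 for wild-type GMP against LSK, 0.44 to 2.32 for that comparison in deficient mice and 0.93 to 1.94 for the average. The GMP genotype median was 0.23 over the 26 genes well above background on all arrays. Counts of genes called ranged from 0 to 13 in deficient GMP against LSK, from 0 to 12 in the average, and were 0 in the others. Array weights gave 3 called genes in wild-type GMP against LSK (Racgap1, adjusted p = 0.0202; Plk1, 0.0394; Kif2c, 0.048; differences 1.97, 2.07 and 2.17, limma), with 7.73% of features called. The weights were 1.45 for wild-type LSK, 0.32 for deficient LSK, 3.58 for wild-type GMP and 0.59 for deficient GMP. The deficient arrays thus counted least in that fit. Normexp correction gave 3 called genes in deficient GMP against LSK (3.02% of features called) and 7 in the average (5.3%), where leaving out both arrays that stood apart gave 1 (7.27%). Signs turned for Cenpf in LSK under quantile normalization (−0.37), and with the mean of all probes for Cdk1 in LSK (0.60) and Birc5 in GMP (−0.33). Median scaling shifted the median of all features to −0.46 from 0.11 in LSK between genotypes and to 0.34 from 0.01 in wild-type GMP against LSK, and the mitosis genes moved with it (median minus that of all features −0.56 and 1.28 in both scalings). With the replicate number as a block, 0 mitosis genes were called in every comparison and no call changed; features called in LSK were 81 against 67, and in GMP 69 against 41. Because the numbers ran against each other in LSK and in wild type, crossed blocks were also tried, and they called 0 mitosis genes, with 197 features higher and 1 lower in LSK and 117 higher and 354 lower in wild type. The remaining alternatives changed no call or sign among the genes picked as brightest, most different or of smallest p. Each of those was followed only in the comparison it was picked for. Other genes did turn: without wild-type GMP replicate 1, wild-type GMP against LSK was above 0 at 39 genes and below 0 at 2, Pttg1 and Ect2.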
